A study of Mus musculus with 6 samples.

Results

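Chemokines are small secreted proteins that direct the movement of leukocytes, and 50 genes with a chemokine or chemokine receptor symbol were read in mouse digits. They were all the genes whose array annotation gave a single symbol built from Ccl, Cxcl, Ccr, Cxcr, Xcl, Xcr, Cx3cl or Cx3cr and a number. The 50 comprised 32 ligands and 18 receptors, out of 20793 genes that could be read, and lay on 51 of the array's 28853 transcript clusters (the set of probes that measures a transcript). The rule used names and no measured value, but it was chosen with earlier results of these data known. All animals were 8 weeks old and the tissue is called whole intact digit in the sample labels and digit tip in the series' design text. A wildtype control group and a K14-CreER;Ctnnb1 cKO group (called cKO here) each had 3 Affymetrix MoGene 1.0 ST arrays. K14-CreER is an inducible Cre recombinase driven by the keratin 14 promoter, which is active in basal epithelium, and Ctnnb1 encodes beta-catenin, a junction protein and transducer of Wnt signals. The inducer, its dose and the time since its use were not stated in the labels, and neither was whether the wildtype animals carried the Cre or received the inducer.

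Chemokines act through receptors that span the membrane and couple to inhibitory G proteins. CXC ligands such as Cxcl1, Cxcl2, Cxcl3 and Cxcl5 act on Cxcr2 and draw neutrophils, Ccl2 acts on Ccr2 and draws monocytes, and Ccl20 acts on Ccr6, carried by several lymphocyte and dendritic cell types. In skin, keratinocytes, fibroblasts, vessels and resident immune cells all release chemokines, many of them after stimulation by interleukin 1, interleukin 17 or tumour necrosis factor through NF-kappaB.

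Promoters were available from RefSeq (assembly GRCm38.p6) for 37 of the 50 genes, each running from 250 bases before the annotated start to 50 bases after it. None was available for Cxcl5 or Ccl2, so the motif searches below did not cover these ligands. Those of the neighbouring neutrophil-attracting ligands Cxcl1, Cxcl2 and Cxcl3 and of Ccl20 are shown because all 4 hold the letters of an NF-kappaB-type motif (GGGAA, then 3 bases of any kind, then CC), while limma, as given below, called 1 of the 4 genes, Ccl20. The windows are chr5:90890995-90891294 (Cxcl1), chr5:90903649-90903948 (Cxcl2), chr5:90785851-90786150 (Cxcl3) and chr1:83116516-83116815 (Ccl20), all on the plus strand and printed 5′ to 3′. Capitals mark every match to the motif on either strand.
Cxcl1: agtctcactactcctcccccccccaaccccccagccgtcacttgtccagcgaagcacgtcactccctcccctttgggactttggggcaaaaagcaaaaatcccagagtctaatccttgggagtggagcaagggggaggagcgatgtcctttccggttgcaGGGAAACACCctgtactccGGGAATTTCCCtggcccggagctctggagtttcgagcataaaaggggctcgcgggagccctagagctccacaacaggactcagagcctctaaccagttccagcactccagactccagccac
Cxcl2: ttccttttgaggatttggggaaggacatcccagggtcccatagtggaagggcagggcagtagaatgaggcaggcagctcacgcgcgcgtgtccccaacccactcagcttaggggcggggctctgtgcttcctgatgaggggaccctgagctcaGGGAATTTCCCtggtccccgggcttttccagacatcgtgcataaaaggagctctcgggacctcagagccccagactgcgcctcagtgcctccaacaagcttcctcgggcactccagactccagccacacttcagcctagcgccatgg
Cxcl3: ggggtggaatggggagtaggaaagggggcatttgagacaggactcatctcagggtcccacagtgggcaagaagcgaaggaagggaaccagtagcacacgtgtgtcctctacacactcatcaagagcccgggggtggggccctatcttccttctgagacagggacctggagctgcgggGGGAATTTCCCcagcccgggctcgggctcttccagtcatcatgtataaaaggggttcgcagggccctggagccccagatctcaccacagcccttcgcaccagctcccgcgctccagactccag
Ccl20: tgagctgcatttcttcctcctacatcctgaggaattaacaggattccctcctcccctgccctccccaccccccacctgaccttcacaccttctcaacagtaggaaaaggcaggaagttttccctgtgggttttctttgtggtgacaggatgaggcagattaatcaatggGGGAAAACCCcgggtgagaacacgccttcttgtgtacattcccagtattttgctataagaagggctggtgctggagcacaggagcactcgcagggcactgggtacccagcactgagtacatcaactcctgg
In Cxcl1, Cxcl2 and Cxcl3 the same run GGGAATTTCCC was found, which matches on both strands, and Cxcl1 held GGGAAACACC besides. In Ccl20 the run was GGGAAAACCC. The match farthest from the start lay 90 bases before it in Cxcl1, 97 in Cxcl2, 73 in Cxcl3 and 81 in Ccl20. Of 32851 mouse promoters of this length 5.78% held the motif, against 7 of 22 ligand promoters (Ccl1, Ccl20, Cxcl1, Cxcl2, Cxcl3, Cxcl9 and Cxcl10) and 2 of 15 receptor promoters (Ccr3 and Ccr6). These ligands share ancestry and some are neighbours, so their promoters are not independent, and the motif was picked with expression results known. The core letters of TCF and LEF factors, through which beta-catenin acts, were searched as CTTTGA and CTTTGT on both strands. CTTTGA stood in 6 of 22 ligand promoters (Ccl8, Ccl12, Ccl17, Ccl25, Cxcl12 and Cxcl15). It stood in 4 of 15 receptor promoters (Ccr4, Ccr6, Cxcr6 and Xcr1), and in 16.0% of all promoters. CTTTGT stood in 4 ligand promoters (Ccl8, Ccl12, Ccl20 and Cxcl15) and 4 receptor promoters (Ccr2, Cxcr3, Cxcr6 and Xcr1), and in 18.7% of all. The capitals above do not mark these letters. Letters TGANTCA, the AP-1 motif, stood in 4 ligand promoters and 2 receptor promoters (7.81% of all promoters).

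Values are log2 signals relative to the median of the control arrays, so every gene has a control median of 0 and its level cannot be compared with that of another gene. The same centring means that no marker shows a level, and the tissue label could not be checked that way. Differences are cKO minus control with limma's standard error over 3 arrays per group. A gene is called where limma's p-value, adjusted by the Benjamini-Hochberg method over all 20793 genes, is under 0.05. The labels call the samples biological replicates without saying that each came from another animal. The p-values here weigh a difference between the groups only against how far the samples of a group lie apart. Limma takes that spread partly from the gene itself and partly from all other genes. Ctnnb1 stood at 0, -0.19 and 0.59 on the control arrays and at -1.10, -0.87 and -1.06 on the cKO arrays, a difference of -1.14 ± 0.24 with a limma adjusted p of 0.0285. That call was lost when control replicate 1 (0.0795) or 3 (0.138) or cKO replicate 1 (0.0944) or 3 (0.148) was left out. cKO replicate 1 stood apart in sex-linked genes, with Xist at -5.84 and Ddx3y at 8.08 where the other 5 arrays lay near 0, so counts are also given without it.

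Among the ligands, Cxcl5, Ccl2 and Ccl20 rose in the cKO, and among the receptors Ccr2, Cxcr6 and Cxcr4 rose. The other 44 genes were not called, and limma called 0 lower. The 3 called of 32 ligands (9.38%) and the 3 called of 18 receptors (16.7%) stand against 1.24% of all genes called higher and 0.697% called lower. At an unadjusted p under 0.05 there were 6 ligands higher and 3 lower, and 4 receptors higher and 0 lower, where all genes gave 6.73% higher and 5.73% lower. A t statistic without limma's sharing of variance between genes called 0 of the 50, and 13 of all 20793 genes. With so few calls over all genes, 0 calls by this plain t statistic in a short list, here and below, carry little weight. The median difference was 0.19 over the ligands and 0.05 over the receptors, beside -0.0044 over all genes. Without cKO replicate 1, limma called 1 ligand, Cxcl5, and 3 receptors, the same 3 as with it. Of all 20793 genes it then called 209 higher and 110 lower. In whole tissue, more cells of a type and more RNA per cell cannot be told apart.

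**Figure D1:**
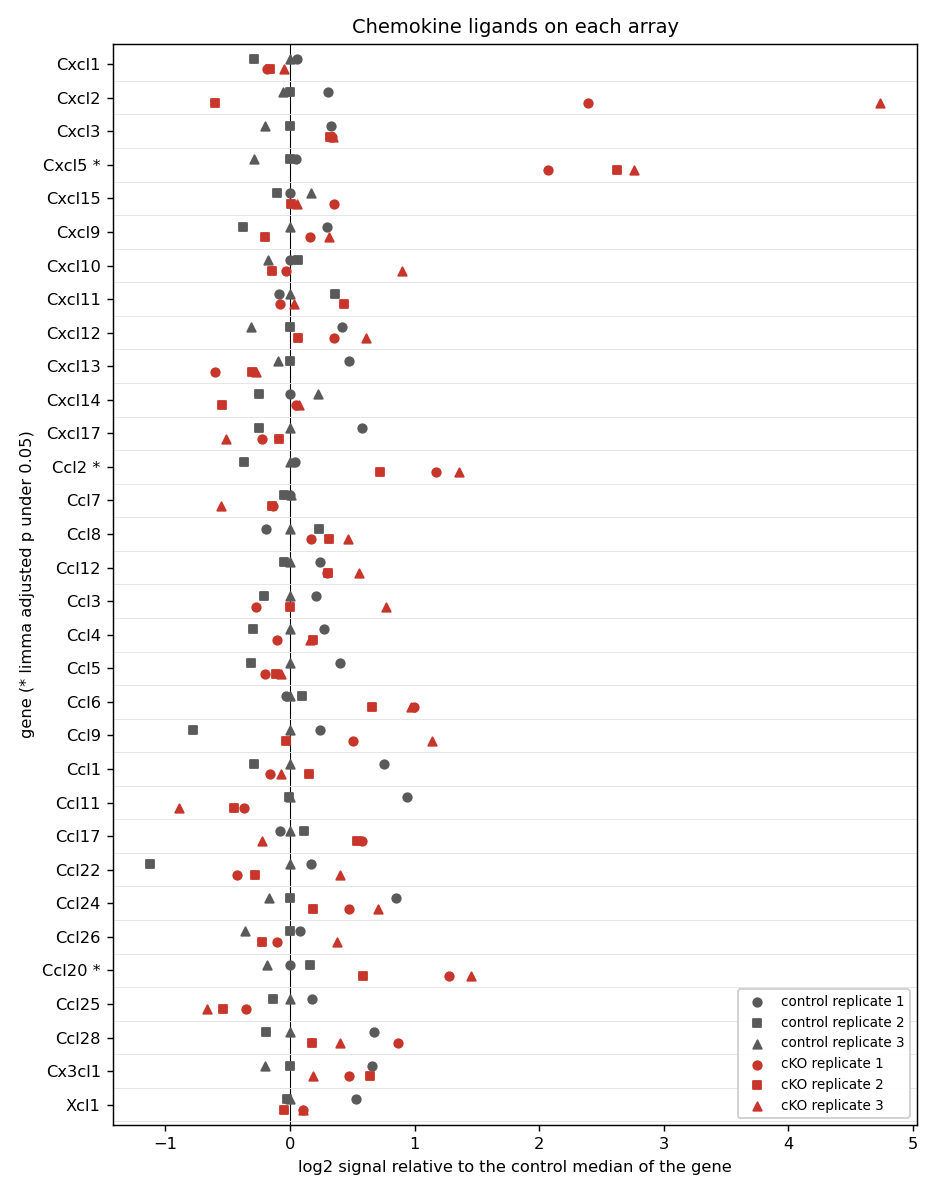
Log2 signal of the 32 ligands relative to the control median (horizontal axis), 1 point per array. Grey marks control and red cKO arrays, the shape gives the replicate, and an asterisk marks genes with a limma adjusted p under 0.05. The cKO points of Cxcl5, between 2.07 and 2.77, lie apart from all control points, while those of Cxcl2 spread from -0.60 to 4.74.

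Among the 5 measured neutrophil-attracting ligands with a Cxcl symbol limma called 1, Cxcl5, and the median difference of the 5 was 0.29. Ppbp, a CXC chemokine under another name, is not counted here. It was called lower and is given below with its neighbours. Cxcl5, a ligand of Cxcr2 released by epithelial cells among others, stood at 0.05, 0 and -0.29 on the control arrays and at 2.07, 2.63 and 2.77 on the cKO arrays. Every cKO array lay far above every control array, and the spread within each group was small beside the gap. The difference was 2.57 ± 0.24 (95% interval 2.05 to 3.08), a 5.93-fold higher signal, with a limma adjusted p of 6.57e-05. Leaving out any 1 array kept the call, with adjusted p values up to 0.00318. Cxcl2, another Cxcr2 ligand, stood at 0.31, 0 and -0.05 on the control arrays and at 2.39, -0.60 and 4.74 on the cKO arrays. Here 2 cKO arrays were the highest of all and the other, cKO replicate 2, was the lowest of all, so the groups overlapped. Its difference of 2.09 ± 0.89 (0.17 to 4.02) had a limma adjusted p of 0.350. The standard error of Cxcl2 was 1.55 without the sharing of variance between genes and 1.51 with robust variances, both larger than limma's 0.89. Without cKO replicate 2 the difference was 3.48 with an adjusted p of 0.00152, and without cKO replicate 3 it was 0.81 with 0.810.

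Cxcl1, a further Cxcr2 ligand with the GGGAATTTCCC run, was close to equal between the groups. Its control arrays stood at 0.06, -0.29 and 0 and its cKO arrays at -0.18, -0.16 and -0.05, within the range of the controls. The interval of its difference, -0.50 to 0.40, leaves out a change as large as that of Cxcl5. Cxcl3, the remaining ligand with that run, stood at 0.33, 0 and -0.20 on the control arrays and at 0.34, 0.32 and 0.34 on the cKO arrays. The cKO arrays of Cxcl3 were nearly equal and at the upper end of the controls, with a difference of 0.29 ± 0.22. Cxcl15, known in mice as lungkine, differed by 0.12 ± 0.21.

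The 3 ligands of Cxcr3, the interferon-induced genes Cxcl9, Cxcl10 and Cxcl11, had differences of 0.12, 0.28 and 0.04, and limma called 0 (0 at an unadjusted p under 0.05, 0 by the plain t statistic). Cxcl10 reached 0.90 on cKO replicate 3, while cKO replicates 1 and 2, at -0.03 and -0.14, lay among the controls. Cxcl12, the stromal ligand of Cxcr4, stood at 0.42, 0 and -0.31 on the control arrays and at 0.36, 0.06 and 0.61 on the cKO arrays, which overlapped. Cxcl13, the B cell attractant that binds Cxcr5, stood at 0.47, 0 and -0.09 on the control arrays and at -0.60, -0.31 and -0.27 on the cKO arrays. All cKO arrays of Cxcl13 were below all controls, but the difference of -0.52 ± 0.23 had a limma adjusted p of 0.373. Cxcl14, expressed by healthy epithelium, differed by -0.13 ± 0.24. Cxcl17, a chemokine of mucosal surfaces, stood at 0.58, -0.25 and 0 on the control arrays and at -0.22, -0.09 and -0.52 on the cKO arrays, which overlapped, with an adjusted p of 0.587 by limma.

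Among the monocyte-attracting CC ligands limma called 1 of 4, Ccl2, and their median difference was 0.31. Ccl2 stood at 0.04, -0.37 and 0 on the control arrays and at 1.17, 0.72 and 1.36 on the cKO arrays. The groups did not overlap, and cKO replicate 2 was nearest to the controls. The difference was 1.19 ± 0.24 (0.68 to 1.71), 2.29-fold, with a limma adjusted p of 0.0188. The call rested on all but 2 of the arrays: it was lost when control replicate 1 (0.0578) or 2 (0.0655) or cKO replicate 1 (0.0687) or 3 (0.126) was left out. Ccl12, a further ligand of Ccr2 in mice, stood at 0.24, -0.05 and 0 on the control arrays and at 0.30, 0.31 and 0.55 on the cKO arrays. Its cKO arrays lay just above the highest control, with a difference of 0.32 ± 0.21 and a limma adjusted p of 0.584. Ccl7 stood at 0, -0.05 and 0.01 on the control arrays and at -0.14, -0.15 and -0.55 on the cKO arrays. Ccl7 therefore pointed down without overlap, by -0.26 ± 0.21 and short of a call, while Ccl8 pointed up by 0.30 ± 0.22 and overlapped.

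Among Ccl3, Ccl4, Ccl5, Ccl6 and Ccl9, further inflammatory CC ligands, limma called 0 (2 higher at an unadjusted p under 0.05, 0 by the plain t statistic). Ccl6, a mouse ligand of Ccr1, was the closest to a call, standing at -0.03, 0.09 and 0 on the control arrays and at 0.995, 0.66 and 0.97 on the cKO arrays. Its groups were well apart, with a difference of 0.85 ± 0.21 and a limma adjusted p of 0.0618. That p was 0.0177 with array weights and 0.0388 over genes that passed the authors' percentile filter, so its call depends on the processing. The filter was rebuilt on control-centred values and tends to keep genes that are higher in the cKO. Ccl9, a neighbour of Ccl6 and likewise a Ccr1 ligand, stood at 0.24, -0.78 and 0 on the control arrays and at 0.51, -0.03 and 1.14 on the cKO arrays. The groups overlapped through cKO replicate 2, and the difference of 0.72 ± 0.32 had a limma adjusted p of 0.385. Ccl3, Ccl4 and Ccl5, attractants of macrophages and T cells, differed by 0.17, 0.09 and -0.16, each less than its standard error.

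Ligands of Ccr3, Ccr4 and Ccr8 gave no call among 6 (1 lower at an unadjusted p under 0.05, 0 by the plain t statistic). Ccl11, or eotaxin, which attracts eosinophils through Ccr3, stood at 0.94, -0.01 and 0 on the control arrays and at -0.37, -0.45 and -0.89 on the cKO arrays. The cKO arrays were all below the controls, and control replicate 1 was far above the other 2 controls. The difference was -0.88 ± 0.28 with a limma adjusted p of 0.174, and -0.57 without control replicate 1. Ccl24 and Ccl26, the other eotaxins, differed by 0.23 and 0.11. Ccl17 and Ccl22, the ligands of Ccr4, differed by 0.28 and 0.22, and Ccl1, the ligand of Ccr8, by -0.18.

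Of the epithelial and lymphoid CC ligands, 3 of 9 had a cluster of their own, and limma called 1, Ccl20. Ccl20, which keratinocytes release and which binds Ccr6, stood at 0, 0.16 and -0.19 on the control arrays and at 1.27, 0.59 and 1.45 on the cKO arrays. The groups did not overlap, and cKO replicate 2 was again the cKO array nearest to the controls. The difference was 1.11 ± 0.25 (0.56 to 1.66), 2.16-fold, with a limma adjusted p of 0.0426. It was not called when control replicate 1 (0.131) or 3 (0.170) or cKO replicate 1 (0.144) or 3 (0.222) was left out, nor when all clusters were tested singly (0.0639). Ccl25, the ligand of Ccr9, stood at 0.17, -0.14 and 0 on the control arrays and at -0.35, -0.54 and -0.67 on the cKO arrays, below all controls. Its difference was -0.53 ± 0.21 with a limma adjusted p of 0.308, and its 2 clusters differed in size, at -0.71 and -0.35. Ccl28, an epithelial ligand of Ccr10 and Ccr3, overlapped between groups, standing at 0.68, -0.19 and 0 in the controls and at 0.87, 0.18 and 0.40 in the cKO. Xcl1, the C chemokine, and Cx3cl1, the membrane-bound fractalkine, differed by -0.12 and 0.28.

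**Figure D2:**
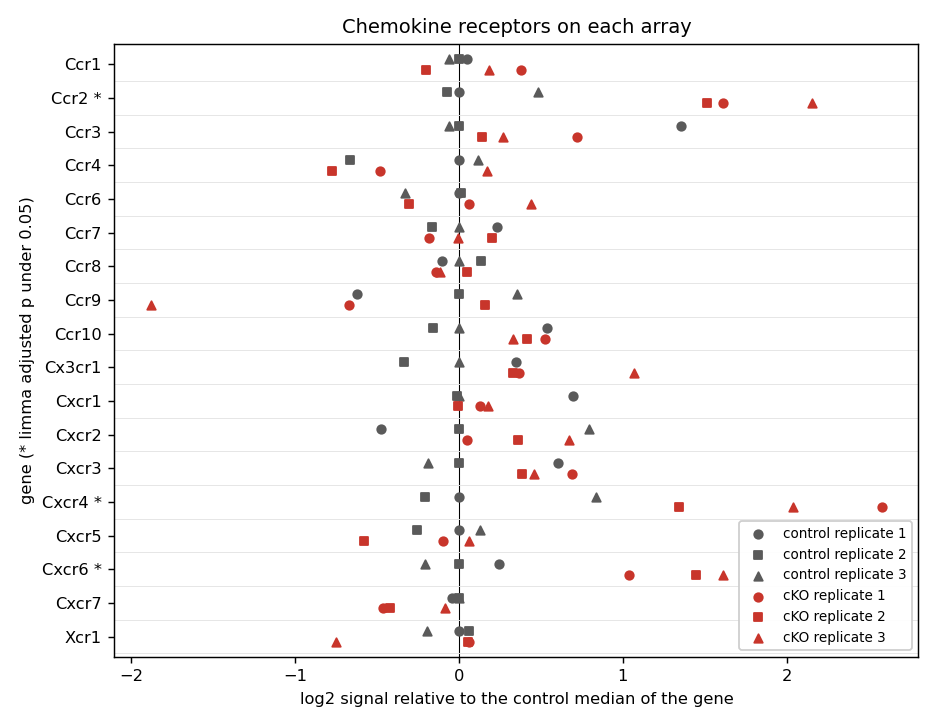
Log2 signal of the 18 receptors relative to the control median (horizontal axis), 1 point per array. Colours, shapes and asterisks are as in the plot of the ligands. The cKO points of Ccr2, Cxcr4 and Cxcr6, between 1.03 and 2.58, lie above all control points of the same gene. Cxcr7 is the older symbol of Ackr3.

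Limma called 1 of the 9 measured CC receptors, Ccr2, against a median of -0.02 for the 9. Ccr2, the receptor of Ccl2 on monocytes and some T cells, stood at 0, -0.07 and 0.48 on the control arrays and at 1.61, 1.52 and 2.16 on the cKO arrays. The lowest cKO array was more than 1 log2 unit above the highest control. The difference was 1.63 ± 0.25 (1.09 to 2.16), 3.09-fold, with a limma adjusted p of 0.00324, and leaving out any 1 array kept the call (up to 0.0371). Ccr9, the receptor of Ccl25, stood at -0.62, 0 and 0.35 on the control arrays and at -0.67, 0.16 and -1.88 on the cKO arrays. Its groups overlapped widely, and the difference of -0.71 ± 0.42 with a limma adjusted p of 0.543 came mostly from cKO replicate 3, without which it was -0.17.

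The receptors of the other called ligands did not follow them past the threshold. Ccr6, the receptor of Ccl20, stood at 0, 0.01 and -0.33 on the control arrays and at 0.06, -0.31 and 0.44 on the cKO arrays. Cxcr2, the receptor of Cxcl5, stood at -0.48, 0 and 0.79 on the control arrays and at 0.05, 0.36 and 0.67 on the cKO arrays. Both overlapped between groups, with differences of 0.17 ± 0.24 for Ccr6 and 0.26 ± 0.30 for Cxcr2. Cxcr1, also bound by neutrophil-attracting ligands, differed by -0.13. Ccr1 (0.13), Ccr3 (-0.06), Ccr4 (-0.18), Ccr7 (-0.02), Ccr8 (-0.08) and Ccr10 (0.30) were likewise not called. In Ccr3, the eotaxin receptor, control replicate 1 at 1.35 was the highest array of all.

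Among 9 CXC, C and CX3C receptors limma called 2, Cxcr4 and Cxcr6, and the median difference was 0.26. Cxcr6, carried by T cell and natural killer cell subsets and bound by Cxcl16, stood at 0.24, 0 and -0.21 on the control arrays and at 1.03, 1.44 and 1.61 on the cKO arrays. No cKO array came near a control, and the difference was 1.35 ± 0.23 (0.85 to 1.86), 2.55-fold, with a limma adjusted p of 0.00736. Without cKO replicate 3 its adjusted p was 0.0598. Cxcr4, the receptor of Cxcl12 on many leukocytes and on endothelial and progenitor cells, stood at 0, -0.21 and 0.84 on the control arrays and at 2.58, 1.34 and 2.04 on the cKO arrays. Control replicate 3 and cKO replicate 2 narrowed its gap, but the groups did not overlap. The difference was 1.78 ± 0.33 (1.05 to 2.50), 3.42-fold, with a limma adjusted p of 0.0135, and the call ended without control replicate 1 (0.114) or cKO replicate 3 (0.125).

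Cx3cr1, the fractalkine receptor of monocytes and macrophages, stood at 0.35, -0.33 and 0 on the control arrays and at 0.36, 0.33 and 1.07 on the cKO arrays. Its groups overlapped between control replicate 1 and cKO replicate 2, and the difference was 0.58 ± 0.26 with a limma adjusted p of 0.389. Cxcr3, the receptor of Cxcl9, Cxcl10 and Cxcl11, stood at 0.60, 0 and -0.19 on the control arrays and at 0.69, 0.38 and 0.46 on the cKO arrays. Control replicate 1 lay among the cKO arrays of Cxcr3, and the difference was 0.37 with a limma adjusted p of 0.593. Cxcr7, now Ackr3, an atypical receptor that removes Cxcl12 without G protein signalling, stood at -0.05, 0 and 0.00 on the control arrays and at -0.46, -0.42 and -0.09 on the cKO arrays. Its cKO arrays lay below the controls, though cKO replicate 3 only just, and the difference of -0.31 ± 0.21 had a limma adjusted p of 0.603. Cxcr5 and Xcr1, the receptors of Cxcl13 and Xcl1, differed by -0.16 and -0.17.

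Groups did not overlap in 13 of the 50 genes. All cKO arrays lay above all controls in 8 (16.0%, against 10.1% of all genes), the 6 called genes with Ccl6 and Ccl12. All lay below in 5, against 9.25% of all genes, which were Ccl7, Ccl11, Ccl25, Cxcl13 and Cxcr7. Taken by ligand and receptor, Ccl2 and Ccr2 were both called, whereas for Cxcl5 with Cxcr2, Ccl20 with Ccr6, and Cxcl12 with Cxcr4 only 1 partner of each was. Whether the partners differed in their change was not tested.

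**Figure D3:**
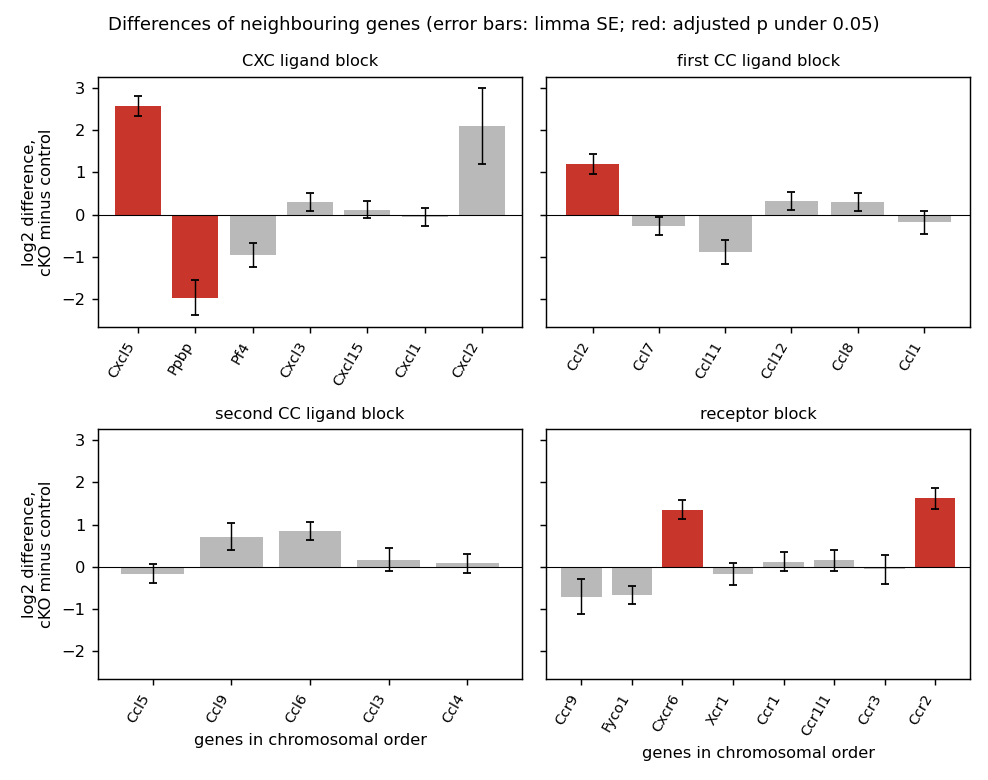
Log2 difference, cKO minus control (vertical axis), of genes that neighbour each other in 4 chemokine or receptor blocks, in chromosomal order; bars are differences, error bars limma's standard error, and red marks genes with an adjusted p under 0.05. In the CXC block Cxcl5 at 2.57 stands next to Ppbp at -1.97.

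Many chemokine genes lie side by side in the genome. Whether neighbours differed in their change was not tested, and the values below are a description. The order and chromosomes below are those of the RefSeq table of GRCm38.p6, and the positions are those of the array annotation on build mm9. On chromosome 5 a block of 7 CXC genes spans positions 91188325 to 91334964, or 146.6 kb, with Cxcl5 (91188325 to 91190651) at one end and Cxcl2 at the other. Between them lie Ppbp, Pf4, Cxcl3, Cxcl15 and Cxcl1. Ppbp and Pf4, chemokines stored in platelets and named outside the Cxcl series in these files, pointed down. Ppbp stood at 0, -0.61 and 1.34 on the control arrays and at -2.27, -1.26 and -1.64 on the cKO arrays, all below the controls, and fell by 1.97 ± 0.41 with a limma adjusted p of 0.0270. The call of Ppbp was lost when control replicate 1 (0.125) or 3 (0.0531) or cKO replicate 1 (0.0760) or 3 (0.172) was left out, with robust variances (0.101) and with clusters tested singly (0.0504). Pf4 differed by -0.96 ± 0.29 with a limma adjusted p of 0.149, and was called without control replicate 2 (0.0293).

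On chromosome 11 a block of 6 genes over 144.2 kb runs from Ccl2 (positions 81849076 to 81850954) through Ccl7, Ccl11, Ccl12 and Ccl8 to Ccl1. Ccl2 was the called gene of that block, and the adjacent Ccl7 and Ccl11 pointed the other way. A further block of 5 on the same chromosome, 138.9 kb long, holds Ccl5, Ccl9, Ccl6, Ccl3 and Ccl4, of which the adjacent Ccl9 and Ccl6 had the differences farthest from 0. On chromosome 9 a block of 435.7 kb holds 6 of the receptors: Ccr9, Cxcr6, Xcr1, Ccr1, Ccr3 and Ccr2. Its called genes, Cxcr6 (123715593 to 123720878) and Ccr2 (124016922 to 124023289), are separated by Xcr1, Ccr1, Ccr1l1 and Ccr3, whose differences ran from -0.17 to 0.15. Ccl20 (83113357 to 83123252) and Cxcr4 (130484776 to 130488876), both on chromosome 1, belong to none of these blocks.

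Of the chemokine and receptor genes that go by other names, limma called 1 of 7 lower, Ppbp, and 0 higher, counting Ackr3 also here. Ackr1, the decoy receptor of venular endothelium and red cells, differed by 0.95 ± 0.37 with a limma adjusted p of 0.302, and was called without cKO replicate 2 (0.0449). Ackr2, a scavenger of inflammatory CC ligands, differed by -0.59 ± 0.24 with a limma adjusted p of 0.319. Ccrl2 and Ccr1l1 differed by -0.19 and 0.15.

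Genes that act before and after the chemokines were read from lists of their pathway. Among cytokines that induce chemokines, 2 of 9 rose: Il1b, by 2.31 ± 0.45 with a limma adjusted p of 0.0163, and Il17f, by 1.90 ± 0.36 with 0.0139. Il17a (0.47), Tnf (0.39) and Il1a (0.38) were not called. Il1b was not called without control replicate 1 (0.123) or cKO replicate 3 (0.0505), nor with robust variances (0.130), and Il17f not when control replicate 1 (0.0540) or 3 (0.0513) or cKO replicate 3 (0.118) was left out. In the NF-kappaB list 2 of 11 rose, the inducible nuclear regulators Nfkbiz, by 2.05 ± 0.22 with a limma adjusted p of 0.000269, and Bcl3, by 1.98 ± 0.31 with 0.00394, and both kept their calls when any 1 array was left out. The subunit gene Rel (0.80, limma adjusted p 0.105) and the kinase gene Ikbke (0.93, 0.0819) were not called. The list's median was 0.50.

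Receptor signalling genes, a list of G protein subunits, kinases, arrestins and guanine nucleotide exchange factors, gave 0 calls by limma among 24 (5 higher at an unadjusted p under 0.05, 0 by the plain t statistic). Elmo1, which works with Dock2 in the activation of Rac, differed by 1.02 ± 0.28 with a limma adjusted p of 0.105, and was called without control replicate 1 (0.0229). Of 15 genes that present or cleave chemokines, Mmp9, a gelatinase that trims CXC ligands and is also made by osteoclasts, rose by 3.01 ± 0.43 with a limma adjusted p of 0.00218 (0.0510 without control replicate 1). Dpp4, the peptidase that inactivates Cxcl12, fell by 1.10 ± 0.25 with a limma adjusted p of 0.0444, and its call was kept without cKO replicate 3 (0.0373) but ended without each other array in turn (0.0874 to 0.186) and with clusters tested singly (0.0651). Hpse, or heparanase, differed by 1.17 ± 0.33 with a limma adjusted p of 0.113, and was called without control replicate 2 (0.0135).

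**Figure D4:**
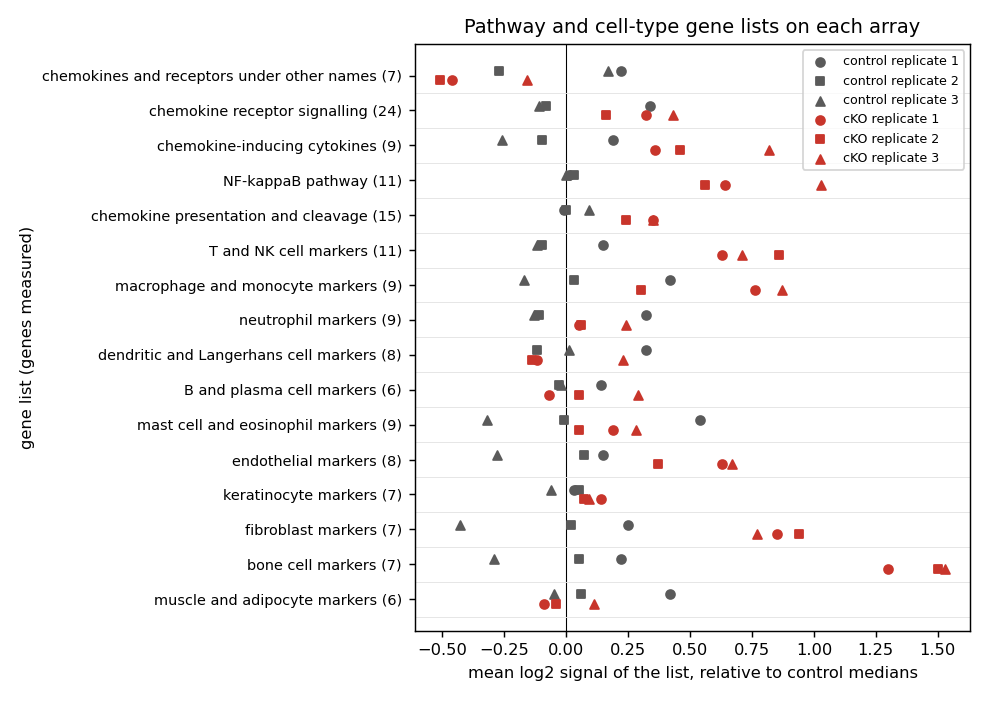
Mean log2 signal relative to the control median over the genes of each pathway or cell type list (horizontal axis), 1 point per array, with control arrays in grey, cKO arrays in red and the number of genes measured in brackets. The mean of the T and NK cell markers lies between 0.63 and 0.86 on the cKO arrays and between -0.12 and 0.15 on the control arrays, and includes Cd3g, whose difference of 3.9996 is the largest of the list (median 0.32).

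Markers of cells that carry the receptors were measured beside them. Among 11 T and NK cell markers 3 rose, Cd3g (3.9996), Cd3d (1.65) and Il2rb (1.27), and 8 did not pass, among them Cd3e (0.32) and, pointing down, Cd4 (-0.17) and Cd5 (-0.35). The median difference of the 11 was 0.32. The mean of that list, in which Cd3g weighs most, was 0.63, 0.86 and 0.71 on the cKO arrays, against 0.15, -0.10 and -0.12 on those of the controls. Among 9 macrophage and monocyte markers limma called 1, Lyz2, which rose by 1.27 with a limma adjusted p of 0.0137 (0.0649 without control replicate 3, 0.100 without cKO replicate 3). At an unadjusted p under 0.05 by limma, 5 of the 9 were higher and 0 lower, beside 6.73% and 5.73% of all genes. Their median difference was 0.63, and Cd163 pointed down (-0.80). The mean of the 9 ran from -0.17 to 0.42 on the control arrays and from 0.30 to 0.87 on the cKO arrays. The neutrophil markers gave 0 calls by limma in 9 (1 higher at an unadjusted p under 0.05, 0 by the plain t statistic), with means from -0.13 to 0.32 on the control arrays and from 0.05 to 0.24 on the cKO arrays. Dendritic and Langerhans cell markers gave 0 calls in 8 (1 higher and 1 lower at an unadjusted p under 0.05, 0 by the plain t statistic), and Cd207, the marker of Langerhans cells, differed by -0.67 ± 0.26. Limma called 3 of 7 fibroblast markers higher (5 higher at an unadjusted p under 0.05, median difference 0.63). It called 3 of 7 bone cell markers higher (7 higher at an unadjusted p under 0.05, median 1.07). The other 4 of each did not pass, with the fibroblast marker Dcn pointing down (-0.37). Of those calls, Col3a1 was lost without cKO replicate 3 (0.0693), and Sp7 without cKO replicate 3 (0.0882) or control replicate 1 (0.0551). The endothelial markers gave 0 calls by limma in 8 (6 higher at an unadjusted p under 0.05, 0 by the plain t statistic) with a median of 0.66. Markers of keratinocytes, B and plasma cells, mast cells and eosinophils, and muscle and adipocytes gave 0 calls each (0 at an unadjusted p under 0.05, 0 by the plain t statistic), with medians from -0.20 to 0.13. The part of these cells in the receptor results was not tested, and whether a marker was near background could not be read from centred values.

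**Figure D5:**
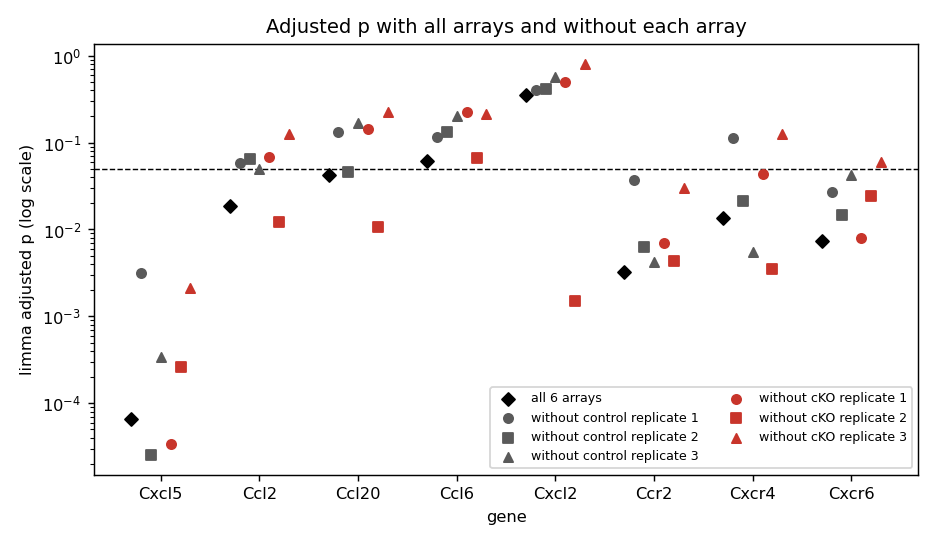
Limma adjusted p (vertical axis, log scale) of the 6 called genes and of Ccl6 and Cxcl2 with all arrays (black) and with each control (grey) or cKO array (red) left out, with a dashed line at 0.05. Cxcl5 and Ccr2 stay below the line throughout, up to 0.00318 and 0.0371, while Ccl2 and Ccl20 cross it without 4 of the 6 arrays.

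The authors' deposited table of clusters that differ by at least 1.5-fold lists 10 of the 50 genes, and 6 of them are also in the authors' deposited table of significant clusters. In the authors' deposited table of significant clusters these are Cxcl5 (5.93-fold, adjusted p 0.00941), Ccr2 (3.09-fold, 0.0218), Cxcr6 (2.55-fold, 0.0210), Ccl2 (2.29-fold, 0.0304), Ccl20 (2.16-fold, 0.0467) and Ccl6 (1.81-fold, 0.0173). Cxcr4 and Cxcl2 appear in the authors' deposited table only by fold, at 3.42 and 4.27, as do Ccl9 at 1.64 and Ccl11 at -1.84, where the minus sign marks a lower signal in the cKO. The adjusted p-values of the authors' deposited table cover the clusters left by their filters, and those of limma above cover all genes. One of those filters chose clusters by their fold between the groups, so the authors' adjusted p-values are not blind to the outcome. With the plain t statistic adjusted over all genes, the same 6 genes had adjusted p values from 0.105 (Cxcl5) to 0.311 (Ccl20), with Ccl6 at 0.164.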

How the data were processed

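Array signals were quantile-normalised with PLIER16, turned into log2 values and set to the median of the controls by the authors, per the methods sheet deposited with the values; the annotation was release na31 on build mm9, per the file headers. The array in the file headers is a whole-transcript design, but the kit in the labels' protocols is one for 3 prime labelling, and this mismatch could not be settled. The signed fold score and the p-values deposited by the authors followed a filter on the 20th percentile and on 1.5-fold, per the file headers. The test is given as an unpaired t-test in the header and as an ANOVA in the methods sheet. With 2 groups and pooled variances these are the same test. The authors' unadjusted p-values were close to those of the plain t statistic here. Cxcl5 had 0.0004075 in both, and Ccl2 had 0.006534 from the authors and 0.006532 by the plain t statistic. The filter on percentile and fold, rebuilt from the values, gave all 1755 deposited clusters.

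A single gene was annotated to 22971 of 28853 clusters, several to 2946 and none to 2936. The RefSeq table of GRCm38.p6 gave present symbols by Entrez identifier (21924 matched, 2642 changed), and a gene was the mean of its single-gene clusters, of which 1246 genes had more than 1. Clusters shared by several genes were left out of the gene test, which leaves Ccl19, Ccl21, Ccl27a and Cxcl16 without a value of their own. The test was limma (version 3.58.1, R 4.3.3; functions lmFit and eBayes) over all 6 arrays with no covariate, adjusted by Benjamini-Hochberg over 20793 genes. The number of arrays limits the precision. Array medians lay between -0.0086 and 0.0779.

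Values on every array were given for called genes, for genes with an unadjusted p under 0.05, for the 3 ligands and 3 receptors of largest difference among the rest, and for receptors or ligands of those. Of each pathway or marker list up to 4 genes of smallest p were named, and further genes were named after their values were seen. The members, lists and motifs were chosen with earlier results of these data known. Alternatives were the workbook values, a block for the replicate number, centring of arrays, robust variances, array weights, a plain t statistic, single clusters as the unit, the authors' filter, a fold minimum and omission of each array. Python 3.11.15, pandas 2.3.3, numpy 2.4.6 and matplotlib 3.10.9 made the tables and figures.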

Additional observations from a re-analysis of the deposited data

How the results depend on the processing

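All 6 called genes kept their direction under every alternative run, and no value turned its sign past the threshold. For the 6 this could not have come out otherwise. Several runs reuse the same difference, and all their cKO arrays lay above all controls, so leaving out or weighting arrays cannot reverse it. Limma's 3 called ligands became 0 with the plain t statistic and 1 to 4 when 1 array was left out, and its 3 receptors became 0 and 1 to 3. The 1 ligand left without control replicate 1, or without cKO replicate 1 or 3, was Cxcl5, and the 1 receptor left without cKO replicate 3 was Ccr2. Over all genes the 258 higher and 145 lower became 10 and 3 with the plain t statistic, 523 and 305 with array weights, and 133 to 261 and 59 to 165 when 1 array was left out. The authors' percentile filter gave 307 higher and 47 lower. It acts on control-centred values and keeps a gene whose control arrays or cKO arrays all pass. Genes lower in the cKO therefore fail it more readily, and it is not blind to the outcome. Same-numbered arrays correlated in their deviations from the group means at 0.0424, 0.138 and -0.0851. Differently numbered arrays ran from -0.187 to 0.138, so these values gave no sign that replicate numbers pair the arrays. With the replicate number as a block there were 4 ligands (Cxcl2 added, limma adjusted p 0.0490) and 3 receptors. Over all genes the block gave 357 higher and 218 lower. Over 38 single genes and all alternatives, 495 outcomes kept their side of the threshold, 64 lost a call and 6 gained one. The alternatives share the same arrays and several hardly change the values, so these outcomes are not independent. With the plain t statistic the adjusted p of the 6 called genes ran from 0.105 to 0.335. Signals above background could not be read from control-centred values, so genes near background are not set apart here.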

Other observations

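Clusters annotated to more than 1 gene were tested singly with limma, and those of Ccl19, Ccl21a, Ccl21b, Ccl21c, Ccl27a and Cxcl16 did not pass. Ccl21a, Ccl21b and Ccl21c, ligands of Ccr7 on lymphatic vessels and in lymphoid tissue, share 4 clusters that differed by 0.42 each, with control arrays from -0.61 to 0.21 and cKO arrays from -0.46 to 0.96. The 5 clusters of Ccl19, the other ligand of Ccr7, differed by 0.29, and their highest array was cKO replicate 3. Those of Ccl27a, a keratinocyte ligand of Ccr10, ran from -0.39 to -0.04. The clusters of Cxcl16, the ligand of Cxcr6, which overlap Zmynd15 in the annotation, differed by 0.02 and 0.17 while Cxcr6 rose.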
